A study of Mus musculus with 11 samples.

Results

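The genes described here encode the AP-1 and small Maf transcription factors: Fos, Fosb and Fosl2 of the Fos family, Jun, Junb and Jund of the Jun family, the related factors Atf3 and Batf, and the small Maf proteins Maff and Mafk. They were found by their gene symbols in the platform annotation, taking only probe sets that name exactly one gene. Each of the 10 genes had 1 such probe set, and all 10 are among the 18755 genes measured; no filter on low values was applied. The cells were bone marrow-derived macrophages of C57Bl/6 wild-type mice, matured for 1 week with 5 ng/ml of the growth factor M-CSF and replated 24 hours before use. Untreated cells (4 arrays) received no stimulus. LPS cells (3 arrays) received 100 ng/ml lipopolysaccharide, a bacterial cell wall component sensed by Toll-like receptor signalling, and LPS plus PGE cells (4 arrays) the same dose with 10 µM prostaglandin E, a lipid mediator, both for 1 hour. There was no group with PGE alone, the labels do not name the form of prostaglandin E, and whether each array stands for a mouse or culture of its own is not recorded, so that p-values here reflect only how far these arrays varied.

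AP-1 is a dimer of basic leucine zipper proteins. Fos proteins cannot pair with one another and bind DNA as partners of Jun proteins, whereas Jun proteins can also pair among themselves; Atf3 and Batf join the same network and often act as repressors or as modulators of it. The small Maf proteins lack a transactivation domain of their own and pair with each other or with Nrf2-type and Bach proteins. In macrophages several of these genes are known as immediate-early genes, switched on from pre-existing factors within minutes of a stimulus, through kinase-controlled serum response factor and CREB and, for some, NF-kB.

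The stretches of DNA just upstream of these genes are shown because cyclic AMP acts on genes through CREB and its binding element and LPS through NF-kB, and both kinds of letters occur here. The sequences are those of RefSeq (GRCm38.p6), on the strand of the gene, each the 250 bases before a start of the RefSeq promoter table. For Fosb that start lies inside the gene's outer bound, and the 73 bases of the window within the gene are not printed, which leaves 177. Capitals mark matches on either strand to TGACG (the core of the cyclic AMP response element, CRE, also read as CGTCA) or to the kB motif. Fosb lies on the minus strand at chr7:19310119-19310295, Fos on the plus strand at chr12:85473640-85473889, Junb on the minus strand at chr8:84978749-84978998, Fosl2 on the plus strand at chr5:32136222-32136471 and Atf3 on the minus strand at chr1:191183334-191183583. The first 4 are the genes whose level was higher with PGE added to LPS, and the last one of those whose level was lower. Whether the marked letters bear on these levels was not tested.
Fosb: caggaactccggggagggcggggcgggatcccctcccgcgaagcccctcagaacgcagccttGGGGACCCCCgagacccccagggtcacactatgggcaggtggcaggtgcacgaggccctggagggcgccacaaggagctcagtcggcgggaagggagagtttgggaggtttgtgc
Fos: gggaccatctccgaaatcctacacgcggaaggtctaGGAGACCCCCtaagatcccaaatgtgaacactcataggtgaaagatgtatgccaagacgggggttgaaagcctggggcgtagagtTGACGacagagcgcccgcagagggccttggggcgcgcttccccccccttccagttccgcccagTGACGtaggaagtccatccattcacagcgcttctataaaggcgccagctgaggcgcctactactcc
Junb: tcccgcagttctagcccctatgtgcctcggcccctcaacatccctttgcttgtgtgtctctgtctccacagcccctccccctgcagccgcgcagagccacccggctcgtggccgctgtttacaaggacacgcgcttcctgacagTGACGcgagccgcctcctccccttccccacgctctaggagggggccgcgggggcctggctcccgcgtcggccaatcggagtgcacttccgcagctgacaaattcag
Fosl2: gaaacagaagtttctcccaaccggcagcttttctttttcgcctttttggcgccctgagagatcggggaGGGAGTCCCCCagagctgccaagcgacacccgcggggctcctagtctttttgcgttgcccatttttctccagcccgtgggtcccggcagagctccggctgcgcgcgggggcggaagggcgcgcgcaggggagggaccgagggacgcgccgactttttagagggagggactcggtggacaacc
Atf3: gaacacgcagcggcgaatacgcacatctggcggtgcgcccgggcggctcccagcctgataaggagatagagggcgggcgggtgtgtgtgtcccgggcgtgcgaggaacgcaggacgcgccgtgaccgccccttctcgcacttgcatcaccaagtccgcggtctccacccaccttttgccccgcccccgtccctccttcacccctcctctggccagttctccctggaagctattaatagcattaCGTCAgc

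The CRE core stood at -60 to -56 from the start used for Fosb, in the bases within the gene that are not printed, and at -66 to -62 and -129 to -125 in Fos, at -106 to -102 in Junb and at -7 to -3 in Atf3. A kB match stood at -188 to -179 in Fosb and at -214 to -205 in Fos, and 2 overlapping kB matches filled -182 to -172 in Fosl2, which had no CRE core. Over the 10 genes, which have 12 such windows because Maff has 3 annotated starts (the windows of starts 2 and 3 lie wholly within the gene's outer bounds), the CRE core was found in 8 windows of 7 genes (Fos, Fosb, Junb, Atf3, Batf, Maff and Mafk), and in 17.77% of all 32851 promoter windows of the same length. The complete CRE, TGACGTCA, which contains the core, was found only upstream of the second start of Maff (1.55% of all windows). The kB motif was found in 4 genes (Fos, Fosb, Fosl2 and Maff; 7.25% of all windows) and an arm of the Maf recognition element, TGCTGA, only in Mafk (16.08%). The AP-1 element TGACTCA (4.46%) and the serum response CArG box (1.47%) were in none of the 12 windows. These are matches of letters, not measured binding. Variant letters and sites farther upstream were not searched.

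**Figure D1:**
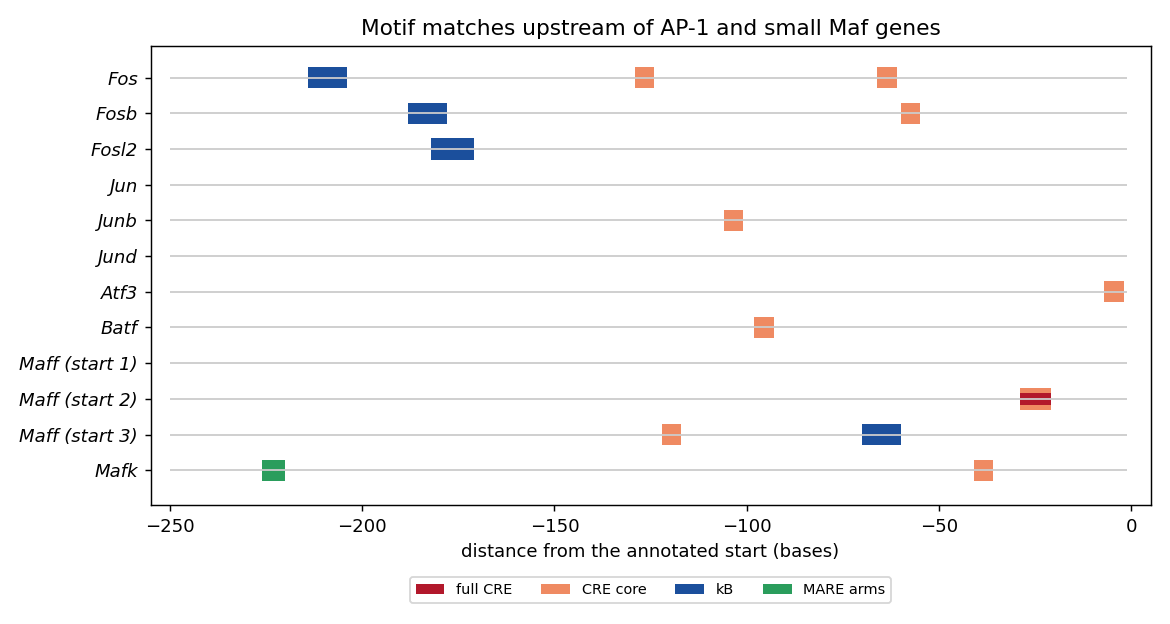
Positions of motif matches in the 250 bases before each start used for the 10 genes (horizontal axis, distance from the start in bases; each grey line is 1 window, and part of the Fosb window and all of Maff windows 2 and 3 lie within the gene). CRE cores lie in 8 of the 12 windows, and the windows of Jun, Jund and the first start of Maff hold no match to any motif searched.

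Levels are the deposited log2 values, on which 1 unit stands for a doubling. A level also depends on the probes of a gene, so levels of different genes, such as the ranges given next, compare only roughly. Of the 10 macrophage markers, including Csf1r, Adgre1 and Cd68, the group means ran from 9.44 to 13.06, and those of 35 markers of neutrophils, dendritic, lymphoid, mast, erythroid and stromal cells from 2.43 to 7.34 in untreated, 2.56 to 7.27 in LPS and 2.56 to 7.14 in LPS plus PGE cells. Array medians over all genes lay between 5.79 and 6.01. They were 5.79 to 5.82 in the LPS plus PGE arrays and 5.89 to 6.01 in the others. The lower quartiles were 4.00 to 4.05 in the LPS plus PGE arrays and 3.80 to 3.90 in the others. The spread of values thus differed by group, and the cause was not tested. Of the 35 markers of other cells, 2 passed the test for LPS, 4 for LPS plus PGE and 7 for LPS plus PGE against LPS; among the macrophage markers only the LPS co-receptor gene Cd14 passed, in all 3 comparisons. The part of other cells in the results below was not tested. In bulk RNA, a change in a few cells and a change in all cells cannot be told apart.

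Stimulation with LPS for 1 hour raised 9 of the 10 genes. Fos, Fosb, Fosl2, Jun, Junb and Maff rose more than 2-fold, Jund, Atf3 and Batf rose by less, and Mafk did not pass. A gene passed at a limma adjusted p under 0.05 (Benjamini-Hochberg over all 18755 genes), and by this rule 13.2% of all genes passed, 6.55% rising, 1.57% rising at least 2-fold and 6.69% falling. In all 9 risen genes the LPS arrays lay above every untreated array, as they did for 10.5% of all genes; groups were apart in either direction for 23.1%. The median change of the 10 genes was 1.19, against -0.01 for all genes.

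PGE together with LPS raised 4 of them further, Fosb, Fosl2, Fos and Junb, and lowered Atf3 and Batf, in the direct comparison of LPS plus PGE with LPS. Jun, Jund, Maff and Mafk did not pass there. Over all genes 24.7% passed in this comparison: 11.9% rose and 12.9% fell (2225 and 2416 genes, or 5850 and 718 with equal array medians). Fosb and Fosl2 were the 2 that rose at least 2-fold, as 0.565% of all genes did. The arrays did not overlap for 7 of the 10 genes (33.9% of all genes), 5 of them higher (15.5%) and 2 lower (18.3%). The median change of the 10 genes was 0.18. Without LPS replicate 3 the number of all genes that passed was 2945 in place of 4641, while the count among the 10 genes was 6 with and without it. Against untreated cells the combined stimulus left 6 genes higher, all more than 2-fold, and 1 lower by less. Of all genes 31.7% passed there, 13.8% rising and 17.9% falling (2587 and 3359 genes, or 5747 and 1724 with equal array medians), and 1.86% rose and 1.11% fell at least 2-fold. The arrays were apart and higher for 7 of the 10 genes and lower for 1, against 13.7% and 21.4% of all genes. The median change of the 10 genes was 1.89, against 0.02 for all genes. This comparison shares its untreated arrays with that of LPS alone, so their values are set side by side only. The comparison of LPS plus PGE with LPS shares its LPS arrays with that of LPS alone. A rise with LPS and a fall between the stimuli are therefore not independent results.

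**Figure D2:**
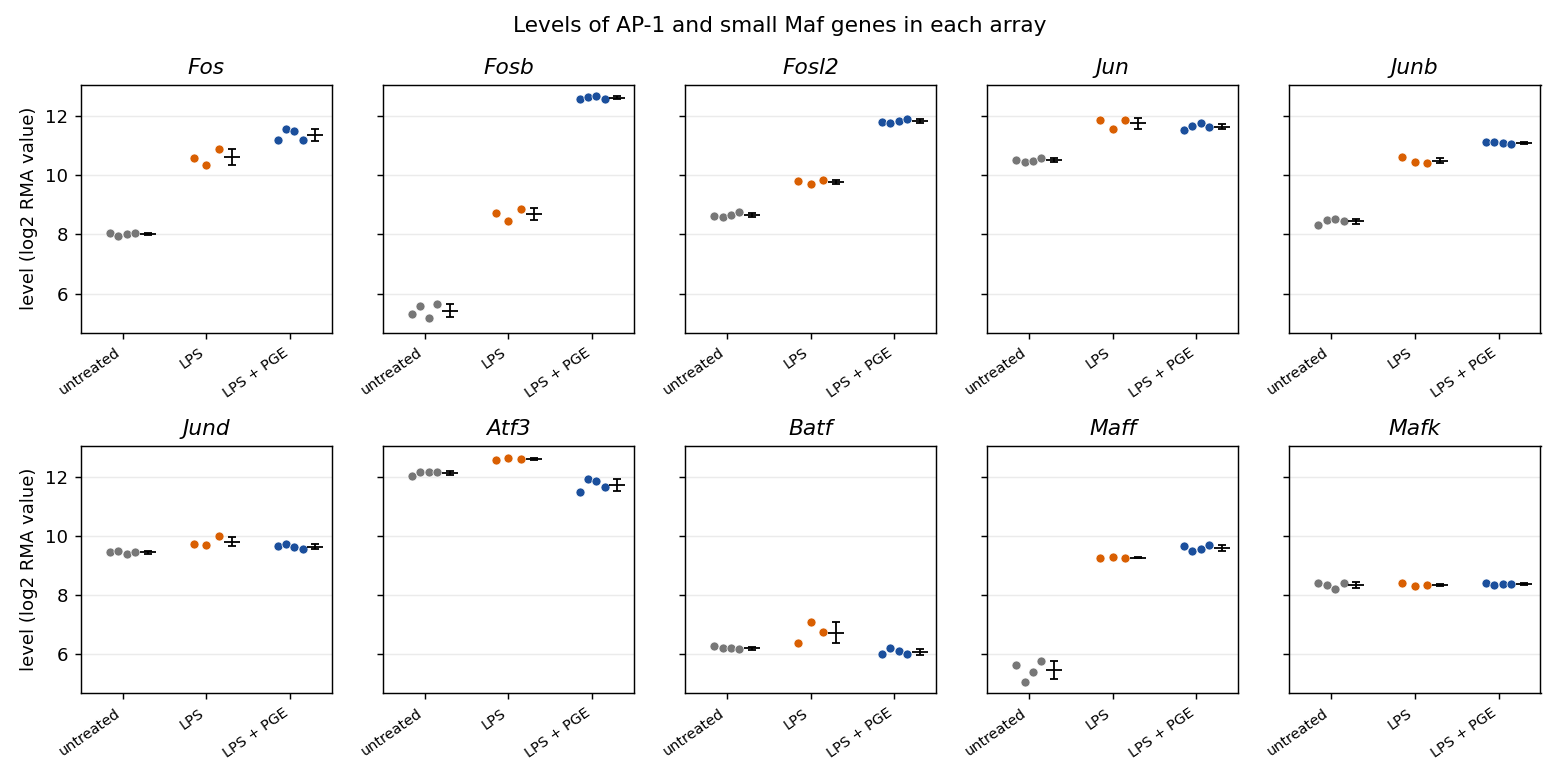
Level of each gene in each array (vertical axis, deposited log2 value), for 4 untreated (grey), 3 LPS (orange) and 4 LPS plus PGE arrays (blue), with the group mean and SD in black. Fosb climbs in 2 steps from 5.42 to 8.69 and 12.63, whereas Atf3 and Batf are highest in the LPS arrays and Mafk stays between 8.20 and 8.42.

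Fosb, a Fos family protein with a strong transactivation domain, showed the largest difference between the stimuli. Its level was 5.30, 5.57, 5.16 and 5.64 in the untreated arrays, 8.72, 8.47 and 8.87 in the LPS arrays, and 12.58, 12.67, 12.68 and 12.59 in the LPS plus PGE arrays. The 3 groups were far apart and the LPS plus PGE arrays lay closest together (SD 0.052, n = 4). LPS raised it by 3.27 ± 0.12 (log2 fold change ± SE, 9.65-fold, limma adjusted p = 1.70e-09), and LPS plus PGE by 7.21 ± 0.11 over untreated cells (149-fold, limma adjusted p = 5.09e-13). The step from LPS to LPS plus PGE was 3.94 ± 0.12, or 15.4-fold (limma adjusted p = 1.68e-09). That was the fourth largest rise of all genes in this comparison, and the fifth largest over untreated cells. Its untreated level lay below the array medians, and background was not measured here, so the changes over untreated cells may be too small.

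Fosl2, which encodes Fra-2, a Fos family member without the strong transactivation domain of Fos, read 8.64, 8.58, 8.66 and 8.77 in untreated arrays. It read 9.80, 9.72 and 9.85 with LPS and 11.81, 11.77, 11.86 and 11.92 with LPS plus PGE. Each group was tight, with SDs of 0.065 to 0.077, and none overlapped. The rise with LPS was 1.13 ± 0.07 (2.18-fold, limma adjusted p = 1.37e-07) and the further rise with PGE 2.05 ± 0.07 (4.14-fold, limma adjusted p = 2.42e-09), so that for this gene the PGE step was the larger of the 2. Together they came to 3.17 ± 0.06 over untreated cells (9.03-fold).

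Fos, the founding member of the family, was at 8.05, 7.96, 8.02 and 8.05 in untreated arrays. The LPS arrays held 10.59, 10.36 and 10.90, and the LPS plus PGE arrays 11.19, 11.59, 11.52 and 11.21. Here the LPS arrays were more spread (SD 0.27, n = 3) than the untreated ones (SD 0.045, n = 4), and every LPS plus PGE array lay above every LPS array. The gene rose by 2.60 ± 0.13 with LPS (6.05-fold, limma adjusted p = 2.86e-08) and by a further 0.76 ± 0.13 with PGE (1.69-fold, limma adjusted p = 0.00215). Over untreated cells the combined stimulus raised it 10.2-fold (3.35 ± 0.12). Of the 3 Fos family genes, LPS thus gave the smallest rise to Fosl2 and PGE the smallest to Fos; these differences between genes were not tested.

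**Figure D3:**
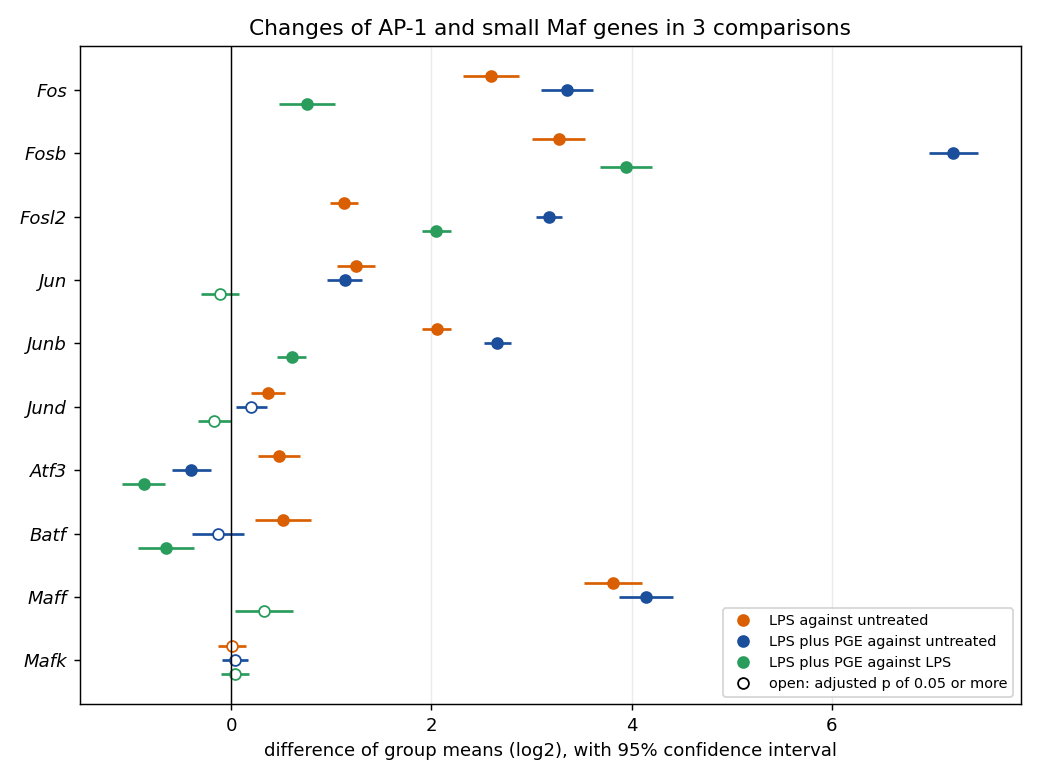
Difference of group means of each gene (horizontal axis, log2, with its 95% confidence interval) for LPS against untreated (orange), LPS plus PGE against untreated (blue) and LPS plus PGE against LPS (green); filled points passed the limma adjusted p of 0.05. The green points run from 3.94 for Fosb to -0.88 for Atf3.

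Of the Jun family genes, Junb rose with LPS and passed again between the stimuli; differences between the 3 genes were not tested. JunB is a Jun protein with weaker transactivation than c-Jun and can oppose it. Its level was 8.34, 8.50, 8.53 and 8.45 in untreated arrays, 10.61, 10.46 and 10.44 in LPS arrays and 11.14, 11.12, 11.11 and 11.06 in LPS plus PGE arrays, with no overlap between groups. LPS raised it by 2.05 ± 0.07 (4.15-fold, limma adjusted p = 5.09e-10), and PGE by a further 0.60 ± 0.07 (1.52-fold, limma adjusted p = 0.000143). The total over untreated cells was 2.66 ± 0.06, or 6.30-fold.

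Jun, encoding c-Jun, the main partner of Fos and itself a target of AP-1, was at 10.53, 10.46, 10.49 and 10.60 in untreated arrays. It stood at 11.86, 11.56 and 11.87 with LPS and at 11.53, 11.69, 11.76 and 11.63 with LPS plus PGE. Both stimulated groups lay above the untreated arrays and overlapped each other. Jun rose by 1.24 ± 0.09 with LPS (2.37-fold, limma adjusted p = 7.03e-07) and by 1.13 ± 0.08 with LPS plus PGE (2.19-fold, limma adjusted p = 4.80e-07). The difference between the stimuli was -0.11, with a 95% confidence interval of -0.30 to 0.08 (limma adjusted p = 0.356). It was 0.05 with equal array medians. A small rise or fall within the confidence interval was thus not excluded.

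Jund, the Jun family gene usually expressed in resting cells, had the smallest change over untreated cells of the 3 with either stimulus. Its untreated arrays read 9.45, 9.49, 9.38 and 9.47, its LPS arrays 9.74, 9.71 and 10.00, and its LPS plus PGE arrays 9.68, 9.73, 9.62 and 9.57. All stimulated arrays were above all untreated ones, and the stimulated groups overlapped. LPS raised it by 0.37 ± 0.08 (1.29-fold, limma adjusted p = 0.0071). With LPS plus PGE the difference from untreated cells was 0.20 ± 0.07, at a limma adjusted p of 0.05003, just outside the threshold; it passed without LPS replicate 2 (0.0438), LPS replicate 3 (0.018) or LPS plus PGE replicate 4 (0.0498), and under 7 other settings. Between the stimuli it differed by -0.17 (95% confidence interval -0.34 to 0.00, limma adjusted p = 0.128).

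Atf3, a stress-induced factor known to restrain Toll-like receptor responses, went in opposite directions with the 2 stimuli. The untreated arrays held 12.04, 12.18, 12.16 and 12.17, the LPS arrays 12.57, 12.66 and 12.61, and the LPS plus PGE arrays 11.48, 11.94, 11.86 and 11.67. The LPS arrays were the highest and the LPS plus PGE arrays the lowest, with no overlap. It rose by 0.48 ± 0.10 with LPS (1.39-fold, limma adjusted p = 0.00576) and fell under LPS plus PGE relative to untreated cells (-0.40 ± 0.09, limma adjusted p = 0.00563). LPS plus PGE was lower than LPS by 1.84-fold (-0.88 ± 0.10, limma adjusted p = 0.000143), the fall ranked 52 among all genes.

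Batf, a factor that pairs with Jun proteins and with interferon regulatory factors, had untreated levels of 6.28, 6.20, 6.20 and 6.16. With LPS it stood at 6.37, 7.08 and 6.74, a wide spread (SD 0.35, n = 3), and with LPS plus PGE at 6.02, 6.20, 6.10 and 6.00. The LPS arrays were above all the others, and the untreated and LPS plus PGE arrays overlapped. It rose by 0.52 ± 0.13 with LPS (1.43-fold, limma adjusted p = 0.0178), a call lost without LPS replicate 2 (0.35, adjusted p = 0.0528) or LPS replicate 3 (0.51, adjusted p = 0.0522), and with the 2 groups fitted alone (adjusted p = 0.0564). It was lower with LPS plus PGE than with LPS (-0.65 ± 0.13, 1.57-fold, limma adjusted p = 0.00459; -0.45 and adjusted p = 0.0616 after quantile normalization). From untreated cells LPS plus PGE differed by -0.13 (95% confidence interval -0.39 to 0.12, limma adjusted p = 0.403).

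Of the small Maf genes among the 10, Maff was strongly raised by LPS. It was at 5.62, 5.06, 5.40 and 5.76 in untreated arrays, at 9.27, 9.29 and 9.26 with LPS and at 9.67, 9.49, 9.56 and 9.69 with LPS plus PGE. The untreated arrays spread the most (SD 0.31, n = 4), and every LPS plus PGE array lay above every LPS array. The rise with LPS was 3.82 ± 0.13 (14.1-fold, limma adjusted p = 9.37e-10) and the rise with LPS plus PGE 4.14 ± 0.12 (17.7-fold, limma adjusted p = 1.30e-10). The difference between the stimuli, 0.33 ± 0.13, did not pass (limma adjusted p = 0.0893). It did with the 2 groups fitted alone (0.0149), without untreated replicate 2 (0.0221), after cyclic loess normalization (0.49, adjusted p = 0.0287) and with equal array medians (0.49, adjusted p = 0.0105). Like that of Fosb, its untreated level lay below the array medians.

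Mafk, the other small Maf gene, had levels of 8.40, 8.36, 8.20 and 8.42 in untreated arrays, 8.40, 8.31 and 8.34 with LPS, and 8.42, 8.34, 8.39 and 8.39 with LPS plus PGE. All 3 groups overlapped. The 95% confidence intervals were -0.13 to 0.15 for LPS against untreated, -0.09 to 0.17 for LPS plus PGE against untreated and -0.10 to 0.18 between the stimuli, with limma adjusted p-values of 0.969, 0.613 and 0.703. Making the array medians equal moved the median change of all genes to 0.14 for LPS plus PGE against untreated and to 0.15 against LPS, and only with that shift (0.17 and 0.19) or, against untreated, after cyclic loess normalization (0.20) did Mafk pass.

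**Figure D4:**
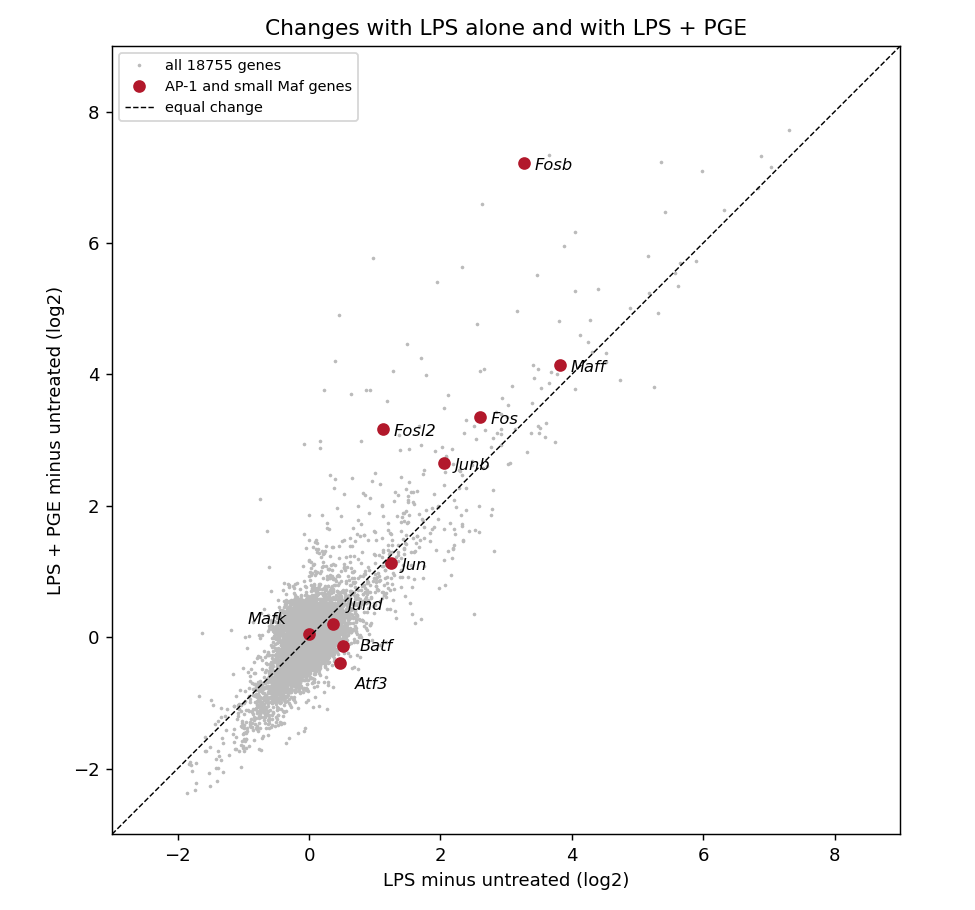
Change of every gene with LPS (horizontal axis) and with LPS plus PGE (vertical axis), both over the same untreated arrays, in log2; red points are the 10 genes, grey points all 18755 genes, and the dashed line marks equal change. Fosb and Fosl2 lie well above the line, Jun close to it, and Atf3 and Batf below it.

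The genes closest to each of the 10 in both changes over untreated cells were found by the Euclidean distance between the pairs of log2 changes, over 17640 other genes without predicted genes and small RNA genes. Closest to Fosb were the cytokine genes Il6 (distance 0.40) and Il23a (1.30) and the orphan nuclear receptor gene Nr4a3 (0.89); within a distance of 1 it had only 2 neighbours. Fosl2 had Gprc5a (0.27), the angiogenic growth factor gene Vegfa (0.39) and the kinase gene Pim3 (0.42) as its nearest genes. Fos lay near Pvr (0.16), the immediate-early gene Ier2 (0.21) and the transcription factor gene Ets2 (0.22). Closest to Junb were Zc3h12a, which encodes an RNase that degrades cytokine transcripts (0.09), the interferon-stimulated gene Isg15 (0.11) and Eid3 (0.14).

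For Maff the nearest were the chemokine gene Ccl5 (0.14), Flrt3 (0.16) and the lectin receptor gene Clec4e (0.31), and for Jun the mRNA decay factor gene Zfp36l1 (0.04), the NF-kB inhibitor gene Nfkbib (0.06) and Phldb1 (0.07). Atf3 was closest to Ccdc122 (0.06), Zbtb2 (0.12) and the interferon-inducible gene Ifi209 (0.13). Batf was closest to Cenpp (0.05), Ticrr (0.06) and Abca8b (0.06). Jund (Klhl1, Olfr908 and Prkaa2) and Mafk (Pax4, Slc10a7 and Olfr539) had nearest genes at distances under 0.01, but changed so little that 9884 and 15420 genes lay within 0.5 of them, as did 4404 of Batf and 1886 of Atf3, against 90 for Jun, 18 for Junb, 15 for Fos, 8 for Maff, 4 for Fosl2 and 1 for Fosb. Single distances moved when an array was left out. Without LPS replicate 3 that of Il6 to Fosb was 0.60 and that of Eid3 to Junb 0.032. Normalization moved some as well. After quantile normalization the distance of Cenpp to Batf was 0.29, that of Ccdc122 to Atf3 0.21 and that of Phldb1 to Jun 0.23. Both changes share the untreated arrays, and a small distance says nothing of a shared control.

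Other leucine zipper genes were listed as partners or relatives of AP-1 and small Maf proteins, and are called partner genes below. Among them, Jdp2 and Crem were those that passed with a 2-fold change in a comparison. Of 20 measured, 4 rose and 2 fell with LPS, 6 rose and 4 fell with LPS plus PGE against untreated, and 4 rose and 4 fell against LPS; of all genes 13.2%, 31.7% and 24.7% passed in these comparisons. Their median changes were 0.03, -0.02 and 0.01, beside -0.01, 0.02 and -0.0045 for all genes. Jdp2, encoding a Jun dimerization protein that represses AP-1, went from 6.34, 6.37, 6.25 and 6.56 in untreated arrays to 8.35, 8.54 and 8.02 with LPS and 9.66, 8.74, 9.07 and 9.40 with LPS plus PGE. Its groups did not overlap, and it rose by 1.92 ± 0.19 with LPS (limma adjusted p = 1.79e-05) and by a further 0.92 ± 0.19 with PGE (limma adjusted p = 0.0059). Crem, a gene of the CREB family, read 6.36, 6.33, 6.35 and 6.32 without stimulus and 6.43, 6.29 and 6.32 with LPS, but 7.99, 7.60, 7.73 and 7.98 with LPS plus PGE. Only the LPS plus PGE arrays stood apart, 1.48 ± 0.09 above LPS (limma adjusted p = 1.51e-06).

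The remaining calls in this list, and Mafg, were named after their values were seen. Mafg, also a small Maf gene, passed in no comparison (0.21 with LPS, -0.02 with LPS plus PGE against untreated and -0.23 against LPS). With LPS, Atf4 (0.36), Bach2 (0.35) and Nfe2l2 (0.30), which encodes the antioxidant regulator Nrf2, rose, and Maf (-0.27) and Nfe2l3 (-0.40) fell; without LPS replicate 2 only 3 genes of the list passed, all of them rises. Against untreated, LPS plus PGE raised Bach1 (0.57), Nfe2l2 (0.37), Atf4 (0.33) and Creb1 (0.20). In the same comparison Atf7 (-0.45), Maf (-0.38), Batf2 (-0.35) and Nfe2l1 (-0.15) fell. Against LPS, LPS plus PGE raised Bach1 (0.50), a heme-sensing repressor that pairs with small Mafs, and Nfe2l3 (0.55). It lowered Batf2 (-0.56), Bach2 (-0.37), Atf7 (-0.25) and Nfe2l1 (-0.18) against LPS. After quantile normalization 3 rises and no fall were called in that comparison, and 6 rises and 2 falls were found with equal array medians. Bach2, like Atf3 and Batf, was thus higher with LPS and lower again with PGE. Both differences rest on the same LPS arrays, so they are not independent. With LPS plus PGE, Bach2 differed from untreated by -0.02 and did not pass. Nfe2l3 read low, with group means of 4.00 (untreated), 3.61 (LPS) and 4.16 (LPS plus PGE). These lay near the lower quartiles of the arrays (3.80 to 4.05), which were themselves highest with PGE added. Background was not measured, and whether its fall and rise reflect regulation of the gene was not tested.

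The genes of the MAP kinase route that activates AP-1 changed by less than 2-fold throughout. Of 18 measured, 5 rose with LPS and 7 with LPS plus PGE against untreated, and none fell, while 1 rose and 3 fell between the stimuli; of all genes 13.2%, 31.7% and 24.7% passed, so the last 2 counts are near those shares. The median changes were 0.09, 0.07 and -0.01, beside -0.01, 0.02 and -0.0045 for all genes. After quantile normalization 1 fell in each comparison. No gene of this list met the rule for naming, and those given here were named after their values were seen. The largest rises with LPS were those of Map3k8 (0.86 ± 0.08), the kinase Tpl2 that links Toll-like receptors to ERK, and Mapkapk2 (0.74 ± 0.06), a kinase downstream of p38. Srf, the serum response factor that drives Fos and other immediate-early genes, was at 8.53 ± 0.08 (SD, n = 4) in untreated, 8.78 ± 0.07 (SD, n = 3) in LPS and 9.27 ± 0.15 (SD, n = 4) in LPS plus PGE arrays. It was the one gene of this list that rose between LPS and LPS plus PGE (0.49 ± 0.08, limma adjusted p = 0.00251). Map2k6, Map3k8 and Mapk14 were lower there by 0.24 to 0.28. Those 3 falls were not called after cyclic loess normalization or with equal array medians (2 and 4 rises, no fall), and 1 gene of the list passed without LPS replicate 3 or LPS plus PGE replicate 1, and 2 without LPS plus PGE replicate 2.

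Genes known for AP-1 sites in their promoters or enhancers mostly rose. Of 16 measured, 9 rose with LPS and 11 with LPS plus PGE against untreated, and none fell in either comparison, nor under the 3 other normalizations tried; their median changes were 0.67 and 1.05, beside -0.01 and 0.02 for all genes, of which 13.2% and 31.7% passed. The list holds genes often described as targets of LPS in macrophages and was chosen with results of these data known. Between LPS and LPS plus PGE 7 rose and 2 fell (24.7% of all genes passed), with a median of 0.37 beside -0.0045 for all genes. Vegfa, the vascular endothelial growth factor, was at 8.45, 8.65, 8.70 and 8.53 in untreated, 9.20, 9.41 and 9.50 in LPS and 11.49, 11.59, 11.65 and 11.54 in LPS plus PGE arrays. Its groups were apart, with a PGE step of 2.20 ± 0.09 (limma adjusted p = 1.84e-08), close to that of Fosl2. The metallothionein gene Mt2 rose by 1.42 ± 0.13 between the stimuli, the metalloproteinase inhibitor gene Timp1 by 0.93 ± 0.19, the growth factor gene Hbegf by 0.84 ± 0.16, the urokinase receptor gene Plaur by 0.62 ± 0.07 and tissue factor F3 by 0.60 ± 0.15, the last call being lost without LPS replicate 3 (adjusted p = 0.0684). Csf2, a myeloid growth factor, rose with LPS (2.54 ± 0.29) and LPS plus PGE (3.02 ± 0.27), and its difference between the stimuli, 0.48 ± 0.29, did not pass (limma adjusted p = 0.24).

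Mmp13, a collagenase gene of this list, went the other way between the stimuli. Its levels were 7.78, 7.79, 7.83 and 7.94 in untreated arrays, 10.86, 10.70 and 10.24 with LPS and 9.92, 9.48, 9.50 and 9.89 with LPS plus PGE. The LPS arrays were the highest and no groups overlapped. It rose by 2.77 ± 0.15 with LPS (limma adjusted p = 6.58e-08), and was lower with LPS plus PGE than with LPS (-0.90 ± 0.15, limma adjusted p = 0.00187). Plau, the urokinase gene, rose by 1.04 ± 0.10 with LPS and was also lower with PGE added (-0.33 ± 0.10, limma adjusted p = 0.0366). The Plau call was lost without any single one of the 3 LPS arrays (adjusted p from 0.064 to 0.11) or of LPS plus PGE replicates 2, 3 and 4 (0.0767 to 0.0856), and after each of the 3 other normalizations (0.0571 to 0.183).

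Genes known for antioxidant or Maf recognition elements, which small Maf heterodimers bind, changed in both directions. Of 13 measured, 3 rose and 1 fell with LPS, 4 rose and 2 fell with LPS plus PGE against untreated, and 4 rose and 2 fell against LPS, where 13.2%, 31.7% and 24.7% of all genes passed. The medians were -0.02, -0.04 and -0.08, beside -0.01, 0.02 and -0.0045 for all genes. Those that rose in all 3 comparisons were the cystine transporter gene Slc7a11 (1.47 ± 0.16 with LPS, 0.78 ± 0.16 more with PGE), the thioredoxin reductase gene Txnrd1 (0.99 ± 0.07 and 0.27 ± 0.07) and the sulfiredoxin gene Srxn1 (0.25 ± 0.06 and 0.82 ± 0.06). Srxn1 no longer passed for LPS without LPS replicate 2 (adjusted p = 0.0558) or with equal array medians (0.0637), and Txnrd1 between the stimuli without LPS replicate 1 (0.0501). Osgin1, an oxidative stress-induced growth inhibitor, was at 8.72, 8.74, 8.75 and 8.87 in untreated, 7.92, 7.95 and 8.25 in LPS and 7.21, 7.23, 7.08 and 6.69 in LPS plus PGE arrays. It fell in a stepwise way without overlap, by -0.73 ± 0.12 with LPS (limma adjusted p = 0.00179) and by -0.99 ± 0.12 between the stimuli (limma adjusted p = 0.000352). The other 2 calls between the stimuli, named after their values were seen, were Gclc, which encodes a subunit of the glutathione-synthesizing ligase and rose (0.26 ± 0.07, limma adjusted p = 0.022), and the heme oxygenase gene Hmox1, which was lower (-0.26 ± 0.06, limma adjusted p = 0.008).

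**Figure D5:**
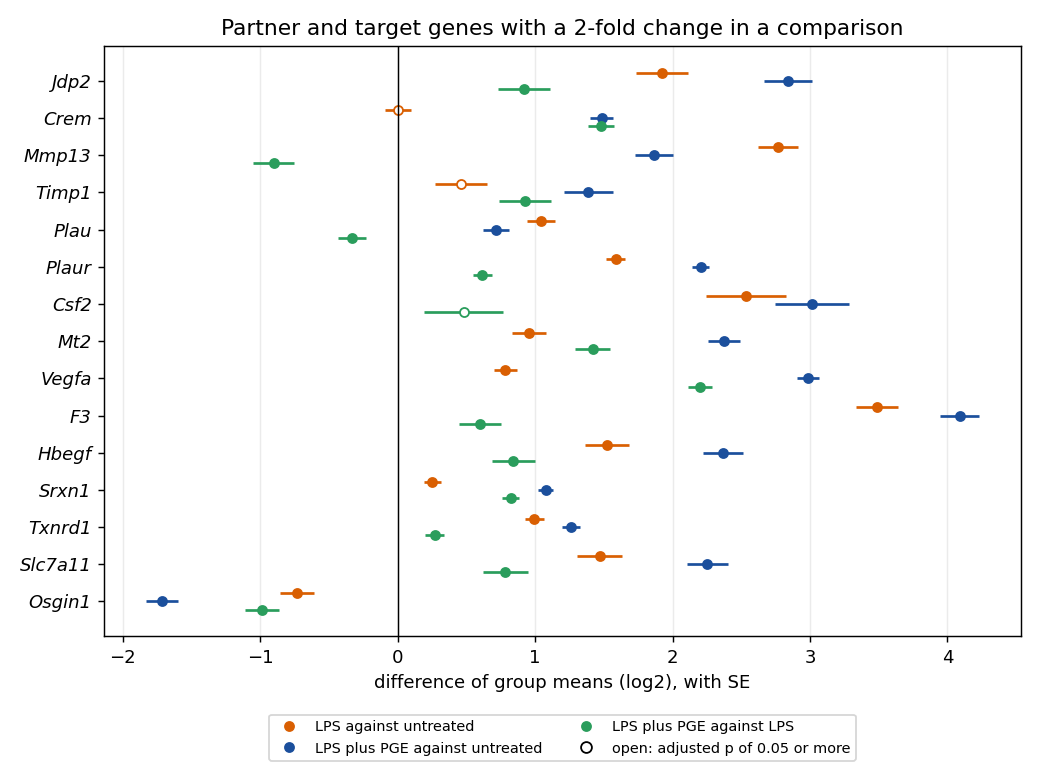
Log2 differences (horizontal axis, with SE) of the listed partner and target genes that passed with at least a 2-fold change in a comparison, coloured by comparison as LPS against untreated (orange), LPS plus PGE against untreated (blue) and LPS plus PGE against LPS (green); open points did not pass. Between the stimuli, Vegfa (2.20) and Crem (1.48) rose most, and Osgin1 (-0.99), Mmp13 (-0.90) and Plau (-0.33) were lower.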

How the data were processed

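Total RNA (250 ng per sample) was measured on Affymetrix mouse gene arrays. Of 12 arrays made, 1 of the LPS group was left out by the authors for quality, per the labels' design text. The deposited values are on a log2 scale; this was inferred from RMA, named with Affymetrix Power Tools, R 2.13.1 and Partek in the submitters' processing notes without roles, and from their range (1.2 to 13.81). No source used here gives the genome build behind the deposited values, and raw arrays were not analysed here.

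Of 35309 probe sets, 21143 carried 1 symbol, 1870 several and 12296 none. The probe set with the highest mean was kept per gene (18755 genes). Group means of all 11 arrays were fitted with limma 3.58.1 in R 4.3.3 (8 residual and 3.77 prior degrees of freedom), two-sided, for 3 comparisons. Adjustment was Benjamini-Hochberg over all genes. The fit was tested on simulated data. The number of arrays limits the precision. Promoter letters were searched in Python 3.11.15.

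The 10 genes and the 4 lists of partners, kinases and targets were chosen with earlier results of these data known. Named were the 10 genes, listed genes that passed with a 2-fold change, and the 3 nearest genes of each; genes outside this rule are said to be named after their values were seen. Listed genes not among the 18755 were not analysed here. Alternatives were quantile and cyclic loess normalization, equal array medians, a robust, trended variance, array weights, the 2 groups fitted alone, leaving out the dimmest genes, all probe sets, mean of probe sets, a 2-fold threshold, the replicate block and each array left out; for the lists, their genes and the distances these were chosen after seeing the data.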

Additional observations from a re-analysis of the deposited data

Results flagged for a closer look

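In the untreated arrays, Atf3 in replicate 1 (12.04) lay apart from the other 3 (12.16 to 12.18): the gap to the nearest array was 0.844 of the whole range, above Dixon's 95% critical value for 4 arrays. Among the 20 groups of 4 arrays tested over the 10 genes it was the only array to stand out in this way, and chance gives about 1 in 20.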

How the results depend on the processing

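The rises of Fos, Fosb, Fosl2, Jun, Junb and Maff over untreated cells, with LPS and with LPS plus PGE, and those of Fosb and Fosl2 between the stimuli passed under all 22 alternatives, and Fos and Junb between the stimuli under all but the 2-fold threshold. With that threshold 2 of the 10 genes passed between the stimuli, and 362, 557 and 134 of all genes passed for LPS, for LPS plus PGE against untreated and against LPS; of the lists, 1, 2 and 1 partner genes, 0, 0 and 0 kinase route genes, 2 AP-1 target genes between the stimuli, and 1 and 0 antioxidant genes for LPS and between the stimuli. Cyclic loess normalization gave 3897 calls in place of 5946 for LPS plus PGE against untreated and 2173 in place of 4641 against LPS, and quantile normalization 1899 against LPS; the cause was not tested. With the trended variance, or without the dimmest genes, 9 kinase route genes passed for LPS in place of 5; between the stimuli 2 did in place of 4 after cyclic loess normalization, with array weights and over all probe sets, and 3 partner genes in place of 8 after quantile normalization. Leaving out each array gave 8 to 9, 7 to 8 and 6 to 7 of the 10 genes, 2945 to 4455 of all genes between the stimuli, 3 to 6 partner genes for LPS and 1 to 4 kinase route genes between the stimuli.

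Signs turned only for values near 0. Mafk for LPS was -0.037 after quantile normalization and -0.028 with equal array medians. With each array left out it ranged from -0.042 (without untreated replicate 3) to 0.031 for LPS and from -0.0062 (without the same array) to 0.067 for LPS plus PGE against untreated. Batf for LPS plus PGE was 0.040 after quantile normalization, and Jun between the stimuli 0.048 with equal array medians. Crem for LPS was -0.017 after quantile normalization, -0.030 with equal array medians and -0.040 to 0.034 with each array left out.

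The labels do not say that replicate numbers pair arrays, and same-numbered arrays deviated together only weakly (correlations over all genes of -0.02 to 0.21 for LPS against untreated, 0.07 to 0.15 for LPS plus PGE against untreated and 0.05 to 0.16 between the stimuli). With the replicate block 9, 7 and 6 of the 10 genes and 2454, 6124 and 4698 of all genes passed. Every array correlated best with its own number for LPS plus PGE against untreated (4 of 4) and against LPS (3 of 3), and 2 of 3 for LPS against untreated, a hint from the data only. No background signal or depth was available in these values, so low levels could not be told from none.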
